A study of Rattus norvegicus with 12 samples.

Results

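The genes examined here are 39 genes of glycolysis and of the cellular response to low oxygen, chosen by name for these functions. They comprise 4 glucose and monocarboxylate transporters, 17 glycolytic enzymes, 4 enzymes that control flux into and out of the pathway, 6 genes of oxygen sensing and 8 targets of the hypoxia-inducible factors outside glycolysis. Each gene was represented by 1 array feature (a transcript cluster), the one with the highest mean over all arrays among the features that carry only its symbol. All 39 were above the filter on low values, and they stand among 15313 named genes and 34422 features that passed it.

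The cells were PC12, a rat line from an adrenal chromaffin tumour, carrying a GFP-tagged exon-1 fragment of huntingtin with 74 glutamines under doxycycline control. There were 4 groups of 3 arrays each. Non-induced cells received the solvent DMSO and no doxycycline. Induced cells received doxycycline at 1 µg/ml and DMSO. The remaining groups received doxycycline and either compound 3 or compound 6 at 10 µM for 48 hours. The series title calls the compounds guanabenz analogues, and their structures were not used here. The construct was present in all 4 groups and doxycycline in the induced groups only, so the fragment and its inducer cannot be told apart. The labels do not say whether the line is 1 clone. An array averages over all cells of a culture, so fewer cells of a kind and less RNA per cell cannot be told apart.

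Glycolysis converts glucose to pyruvate, which lactate dehydrogenase turns to lactate or the mitochondrion oxidises. In low oxygen the alpha subunits HIF-1α (Hif1a) and HIF-2α (Epas1) escape hydroxylation by the EGLN enzymes and degradation through VHL, pair with ARNT and raise transcription of glucose transporters, glycolytic enzymes, Pdk1, Vegfa and others. This control acts mainly on the HIF-α proteins, which an RNA array does not measure. HIF-2α is known as the prominent form in chromaffin cells and their tumours.

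Deposited values are log2 expression, and all differences below are on that scale with the standard error of the fit. A call means an adjusted p under 0.05 in limma over all 34422 features. The array medians lay between 4.61 and 4.70, near the filter level of 4.63. The correlations between arrays lay between 0.995 and 0.998. The upper range differed more. The 95th percentile was 10.32, 10.31 and 10.29 in non-induced arrays and 10.32, 10.18 and 10.09 in induced DMSO arrays. It was 10.27, 10.22 and 10.20 with compound 3 and 10.27, 10.18 and 10.23 with compound 6. The median of the genes examined was 9.49 to 9.58, 9.24 to 9.36, 9.15 to 9.21 and 9.23 to 9.50 in the same order. The cause of these differences was not tested. Of 11 chromaffin markers, 10 were on the array under their symbols, and all 10 passed the filter. Their mean level was 10.21 to 10.42 in the non-induced arrays, 9.41 to 9.69 in the induced DMSO arrays, 8.76 to 9.30 with compound 3 and 9.49 to 9.79 with compound 6. The mean of these 10 markers was thus lower in all 9 induced arrays than in any non-induced array, alongside the differences described below. A mean does not show whether each marker was lower, and the markers' part in those differences was not tested. The list means of most other cell types lay near the filter level of 4.63, although single markers lay above it. The 6 fibroblast markers averaged 4.56 to 4.73 over all arrays. Of these, Dcn, Lum and Pdgfra were below the filter and Col1a1 (6.31), Col1a2 (6.10) and Col3a1 (5.39) above it. The 5 macrophage markers averaged 4.32 to 4.40, with Cd68 above the filter at 5.52. The 5 endothelial markers averaged 4.38 to 4.51, with Vwf (5.34) and Pecam1 (4.96) above it. Of the adrenal cortex list 3 genes were measured (4.58 to 4.76), and of the Schwann and satellite glia list 3 (5.58 to 5.80).

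Induction with DMSO changed 7 of the 39 genes (17.9%), against 9.06% of all features tested. Of the 39 genes 6 fell and 1 rose, while 4.86% of all features fell and 4.20% rose. This split depended on the scaling between arrays: under quantile normalisation 3 fell and 3 rose. The genes that fell were Epas1, Vegfa, P4ha1, the glucose transporters Slc2a1 and Slc2a3 and the monocarboxylate transporter Slc16a1. The gene that rose was Ldhb. Across the 39 genes the median difference was -0.02 and that of all features 0.01. An unadjusted p under 0.05 was found for 14 of the 39, beside 21.0% of all features. Groups did not overlap for 16 of the 39, 5 with the induced arrays above and 11 with them below. Of all features 22.7% did not overlap, 13.3% above and 9.45% below.

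**Figure D1:**
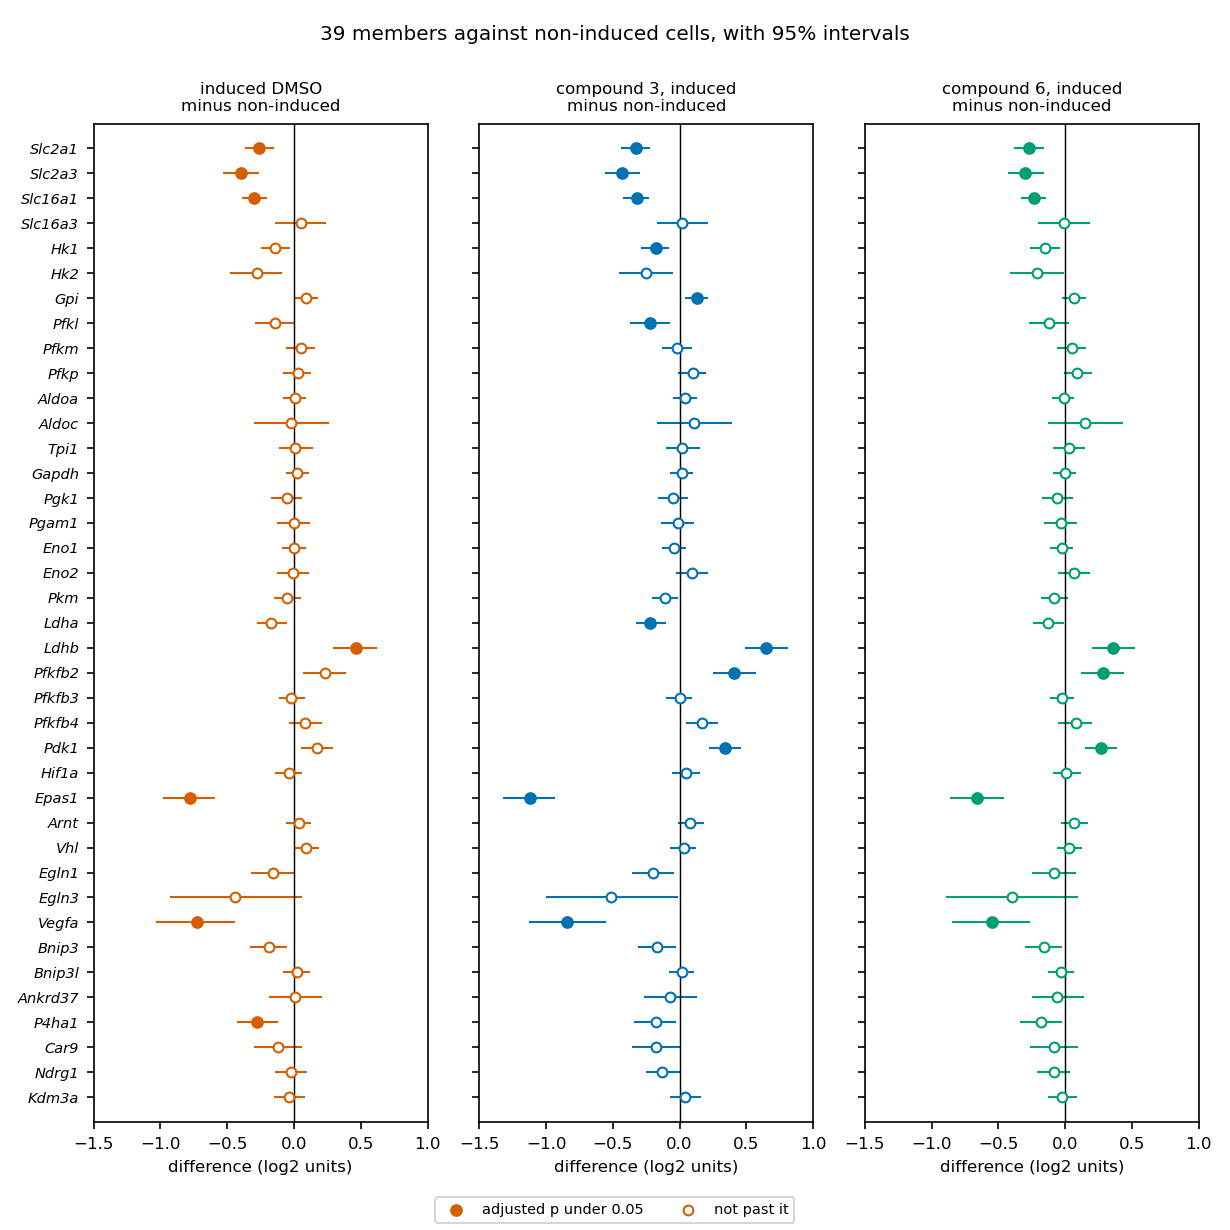
Difference of each induced group from the non-induced group for the 39 genes, in log2 units (x axis), with 95% intervals. Each panel is 1 induced group and filled circles passed an adjusted p of 0.05. Epas1 lies farthest to the left in all 3 panels (-0.78, -1.12 and -0.66) and Ldhb farthest to the right.

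Among the 6 genes of oxygen sensing, Epas1 was the only one called on induction. Its level was 11.97, 12.01 and 12.14 in the non-induced arrays, 11.27, 11.17 and 11.33 in the induced DMSO arrays, 10.95, 11.03 and 10.77 with compound 3, and 11.52, 11.21 and 11.41 with compound 6. Every induced array, with or without a compound, was below every non-induced array, and the compound 3 arrays were the lowest of all. Induction lowered Epas1 by 1.72-fold (log2 difference -0.78 ± 0.09, 95% interval -0.98 to -0.59, adjusted p = 0.00052). Hif1a, the gene for the other main alpha subunit, read 10.59, 10.60 and 10.56 in non-induced, 10.62, 10.54 and 10.47 in induced DMSO, 10.66, 10.60 and 10.63 with compound 3, and 10.62, 10.58 and 10.59 with compound 6. The groups overlapped, and its induction difference was -0.04 ± 0.05 (adjusted p = 0.685).

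The partner subunit gene Arnt differed by 0.04 (adjusted p = 0.703) and Vhl, whose product marks hydroxylated HIF-α for degradation, by 0.09 (adjusted p = 0.25). Egln1, the principal HIF prolyl hydroxylase gene, differed by -0.16 (adjusted p = 0.261). Egln3, a hydroxylase gene that is itself induced by HIF, had the widest spread of all 39 genes. Its non-induced arrays read 9.87, 8.81 and 9.41, a range of 1.06, and its induced DMSO arrays 9.06, 8.79 and 8.93. The groups overlapped through the second non-induced array, and the difference of -0.44 did not pass (adjusted p = 0.305). Without that array, the lowest of its group, the difference was -0.71 and passed (adjusted p = 0.0427).

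Of the 8 HIF targets outside glycolysis, 2 fell on induction and 0 rose. Vegfa, the angiogenic growth factor, read 10.12, 9.69 and 9.93 in the non-induced arrays, 9.36, 9.04 and 9.14 in induced DMSO, 9.18, 9.17 and 8.87 with compound 3, and 9.50, 9.15 and 9.43 with compound 6. All 9 induced arrays were below the lowest non-induced array. The induction difference was -0.73 ± 0.13, or 1.66-fold lower (adjusted p = 0.00492). P4ha1, the catalytic alpha subunit of collagen prolyl 4-hydroxylase, read 9.79, 9.70 and 9.92 in non-induced and 9.53, 9.48 and 9.57 in induced DMSO arrays. These groups did not overlap and P4ha1 fell by 0.28 ± 0.07 (adjusted p = 0.0325). That call was lost in 9 of 23 alternatives, among them leaving out non-induced replicate 1 or 3 or induced replicate 2 or 3. With compound 3 P4ha1 read 9.53, 9.75 and 9.58 and with compound 6 it read 9.59, 9.58 and 9.70, so that both groups reached the range of the non-induced arrays.

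Bnip3, a mitophagy receptor gene, was lower on every induced DMSO array (9.87, 9.76 and 9.84) than on every non-induced array (10.05, 9.91 and 10.08), but the difference of -0.19 did not pass (adjusted p = 0.0965). Car9, the carbonic anhydrase gene widely used as a marker of hypoxia, read 7.19, 6.94 and 7.01 in non-induced, 6.96, 6.83 and 6.99 in induced DMSO, 6.94, 6.88 and 6.79 with compound 3, and 7.05, 6.82 and 7.02 with compound 6. The groups overlapped and the induction difference of -0.12 did not pass (adjusted p = 0.45). The remaining 4 targets, Bnip3l, Ankrd37, Ndrg1 and the histone demethylase gene Kdm3a, lay between -0.04 and 0.02.

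Of the 4 transporter genes, 3 fell on induction. Slc2a1, which encodes the glucose transporter GLUT1, read 9.90, 9.79 and 9.87 in the non-induced arrays, 9.51, 9.63 and 9.63 in induced DMSO, 9.51, 9.56 and 9.51 with compound 3, and 9.59, 9.62 and 9.55 with compound 6. Slc2a3, which encodes the neuronal transporter GLUT3, read 11.39, 11.26 and 11.34 in non-induced, 10.95, 10.92 and 10.93 in induced DMSO, 10.95, 10.95 and 10.80 with compound 3, and 11.14, 10.96 and 11.00 with compound 6. Slc16a1, which encodes the lactate and pyruvate carrier MCT1, read 9.15, 9.14 and 9.17 in non-induced, 8.80, 8.87 and 8.90 in induced DMSO, 8.80, 8.86 and 8.83 with compound 3, and 8.97, 8.91 and 8.88 with compound 6. For each of the 3 genes every induced array was below every non-induced array.

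The induction difference was -0.26 ± 0.05 for Slc2a1 (adjusted p = 0.00625), -0.40 ± 0.06 for Slc2a3 (adjusted p = 0.00191) and -0.30 ± 0.04 for Slc16a1 (adjusted p = 0.00159). A second feature of Slc2a3 fell by 0.38 (adjusted p = 0.00203). Slc2a1 and Slc2a3 depended on the scaling between arrays: under quantile normalisation the Slc2a3 difference was -0.21 (adjusted p = 0.19) and the Slc2a1 call was also lost, as it was with cyclic loess. Slc16a3, which encodes the lactate exporter MCT4 and is a HIF target, differed by 0.05 (adjusted p = 0.804), with overlapping groups.

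**Figure D2:**
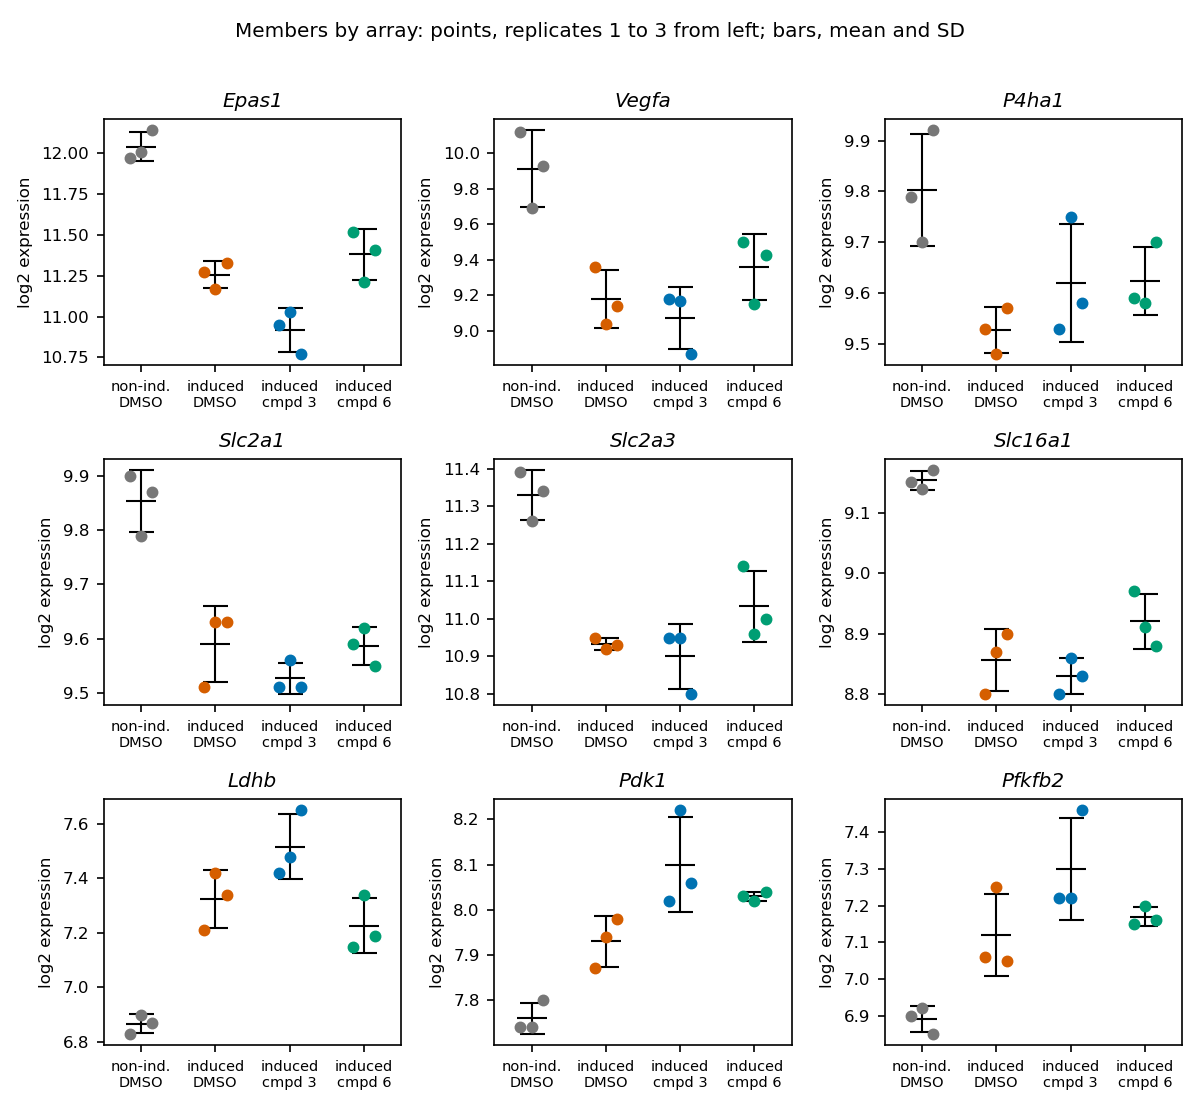
Log2 expression (y axes, each with its own range) of 9 of the 39 genes on every array, by group (x axes). Points are replicates 1 to 3 from left to right and bars give the mean and SD of 3 arrays. In all 9 panels the induced DMSO arrays lie entirely below or entirely above the non-induced arrays, as for Epas1 (11.17 to 11.33 against 11.97 to 12.14). The 9 genes are all among those called in at least 1 comparison. Over all 39 genes these groups did not overlap for 16, beside 22.7% of all features.

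HIF dimers bind DNA at sites whose core reads ACGTG, or GCGTG in some genes. The 250 bases before the start of transcription were searched for these letters on both strands in RefSeq promoters of the rat assembly GRCr8, for which 35 of the 39 genes had an entry, with 41 promoters in all. A core was found in 24 of the 41 (58.5%), against 36.7% of 33469 promoters of the same length in the table. The promoters of these genes were also richer in G and C (median 63.2%, against 51.2%). Among genes called in at least 1 comparison, 8 of 14 promoters held a core (57.1%), and among genes called in none, 16 of 27 (59.3%). A match is a run of letters, not a measured binding site, and a promoter without one may hold other sequences outside the window.

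The promoters below belong to Epas1 and Vegfa, the genes with the largest decreases on induction, to Slc2a1, Slc16a1 and P4ha1, which also fell, to Pdk1, a HIF target that ran the other way, and to Ldha, a classical HIF target. Capitals mark the cores on either strand, and where both strands match the overlapping cores join into 1 run. Vegfa has another start in the table, whose 250 bases also held none.
Epas1, chr6:13624730-13624979, minus strand: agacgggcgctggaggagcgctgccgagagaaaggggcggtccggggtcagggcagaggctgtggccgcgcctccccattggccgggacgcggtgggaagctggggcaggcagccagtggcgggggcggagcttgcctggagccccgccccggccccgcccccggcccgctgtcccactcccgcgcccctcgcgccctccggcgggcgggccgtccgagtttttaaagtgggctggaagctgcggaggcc
Vegfa, chr9:22452604-22452853, plus strand: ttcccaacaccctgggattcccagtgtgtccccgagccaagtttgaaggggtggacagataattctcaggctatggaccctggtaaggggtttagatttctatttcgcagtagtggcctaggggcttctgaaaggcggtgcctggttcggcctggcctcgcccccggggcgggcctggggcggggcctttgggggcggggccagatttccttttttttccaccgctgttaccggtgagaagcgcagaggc
Slc2a1, chr5:138002272-138002521, plus strand: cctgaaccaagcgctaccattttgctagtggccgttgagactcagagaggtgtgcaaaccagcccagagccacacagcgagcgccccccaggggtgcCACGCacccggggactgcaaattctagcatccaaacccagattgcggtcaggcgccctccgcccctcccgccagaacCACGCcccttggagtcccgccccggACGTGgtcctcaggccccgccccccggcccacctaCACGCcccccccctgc
Slc16a1, chr2:194812410-194812659, plus strand: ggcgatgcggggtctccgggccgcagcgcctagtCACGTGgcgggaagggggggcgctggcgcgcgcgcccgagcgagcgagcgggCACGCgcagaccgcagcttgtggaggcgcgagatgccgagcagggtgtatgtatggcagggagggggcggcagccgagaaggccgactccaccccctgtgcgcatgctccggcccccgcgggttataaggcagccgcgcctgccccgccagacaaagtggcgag
P4ha1, chr20:27844796-27845045, plus strand: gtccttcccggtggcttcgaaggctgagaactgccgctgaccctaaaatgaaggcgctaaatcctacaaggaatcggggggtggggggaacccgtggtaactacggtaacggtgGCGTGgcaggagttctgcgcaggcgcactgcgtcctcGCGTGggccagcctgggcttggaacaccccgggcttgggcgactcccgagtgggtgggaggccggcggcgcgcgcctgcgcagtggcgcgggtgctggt
Pdk1, chr3:77113264-77113513, plus strand: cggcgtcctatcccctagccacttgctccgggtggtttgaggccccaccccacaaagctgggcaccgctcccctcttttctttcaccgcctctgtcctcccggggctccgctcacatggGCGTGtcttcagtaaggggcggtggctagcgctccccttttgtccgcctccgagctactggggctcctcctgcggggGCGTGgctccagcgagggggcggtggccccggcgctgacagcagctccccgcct
Ldha, chr1:106507842-106508091, plus strand: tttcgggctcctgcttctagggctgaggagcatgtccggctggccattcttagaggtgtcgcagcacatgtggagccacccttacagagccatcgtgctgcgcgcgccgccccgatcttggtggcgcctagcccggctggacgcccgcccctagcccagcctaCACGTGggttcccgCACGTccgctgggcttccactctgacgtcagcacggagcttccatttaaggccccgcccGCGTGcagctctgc

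The Epas1 and Vegfa windows held 0 cores, whereas Slc2a1 held 4 and Pdk1 and P4ha1 held 2 each. In Slc16a1 3 matches fell in 2 places and in Ldha 4 matches in 3 places, because a palindromic core counts on both strands. Ldhb, which rose on induction, held 1 core, and Pfkfb2 held 0. Genes with a core in this window thus included genes that fell, genes that rose and genes that were not called.

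The 17 glycolytic enzymes lay close to 0 on induction, with a median difference of 0.00 and 1 call. Ldhb, which encodes the lactate dehydrogenase subunit of heart and brain, read 6.83, 6.90 and 6.87 in non-induced, 7.21, 7.42 and 7.34 in induced DMSO, 7.42, 7.48 and 7.65 with compound 3, and 7.15, 7.34 and 7.19 with compound 6. All 9 induced arrays were above every non-induced array. Ldhb rose by 0.46 ± 0.07, or 1.37-fold (adjusted p = 0.0027). Ldha, which encodes the subunit of muscle and of hypoxic cells, read 11.33, 11.29 and 11.39 in non-induced, 11.20, 11.12 and 11.19 in induced DMSO, 11.14, 11.19 and 11.03 with compound 3, and 11.24, 11.19 and 11.20 with compound 6. Its induced arrays were all below the non-induced arrays, the opposite direction to Ldhb, but the induction difference of -0.17 ± 0.05 did not pass (adjusted p = 0.0715).

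The hexokinase genes, whose enzymes trap glucose in the cell, also lay lower without passing. Hk1 read 10.02, 10.00 and 10.04 in non-induced and 9.83, 9.92 and 9.89 in induced DMSO arrays, a difference of -0.14 (adjusted p = 0.111). Hk2, the HIF-responsive hexokinase gene, read 8.83, 8.57 and 8.89 against 8.37, 8.51 and 8.56, a difference of -0.28 (adjusted p = 0.0789). Its groups nearly touched, through the low second non-induced array. Without that array the Hk2 difference was -0.38 and passed (adjusted p = 0.021).

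Gpi, the isomerase gene of the second step, read 11.93, 11.89 and 11.94 in non-induced and 12.02, 12.04 and 11.98 in induced DMSO arrays, and the difference of 0.09 did not pass (adjusted p = 0.191). Pfkl, the liver-type phosphofructokinase gene, read 10.17, 9.97 and 10.14 against 9.91, 9.90 and 10.04, with overlap and a difference of -0.14 (adjusted p = 0.265). The other 11 enzyme genes, from the phosphofructokinase genes Pfkm and Pfkp through Aldoa, Aldoc, Tpi1, Gapdh, Pgk1, Pgam1, Eno1 and Eno2 to Pkm, lay between -0.05 and 0.05. Enzyme genes with high signal moved with the scaling between arrays. Under quantile normalisation the Gapdh difference went from 0.02 to 0.18 (adjusted p = 0.0237), that of Gpi to 0.30 (adjusted p = 0.00923) and that of Ldha to 0.01. With arrays shifted to one median, Gapdh was at -0.01 and Ldha passed at -0.20 (adjusted p = 0.0405).

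Of the 4 flux-control genes none was called on induction in limma, although Pfkfb2 and Pdk1 had an unadjusted p under 0.05. Pdk1 encodes a kinase that inactivates pyruvate dehydrogenase and so holds pyruvate back from oxidation in the mitochondrion. It read 7.74, 7.74 and 7.80 in non-induced, 7.87, 7.94 and 7.98 in induced DMSO, 8.02, 8.22 and 8.06 with compound 3, and 8.03, 8.02 and 8.04 with compound 6. Every induced array was above every non-induced array, and the induction difference was 0.17 ± 0.06 (adjusted p = 0.0892). Pfkfb2, a bifunctional enzyme gene that sets the level of the phosphofructokinase activator fructose 2,6-bisphosphate, read 6.90, 6.92 and 6.85 in non-induced, 7.06, 7.25 and 7.05 in induced DMSO, 7.22, 7.22 and 7.46 with compound 3, and 7.15, 7.20 and 7.16 with compound 6. It too was higher on every induced array, with an induction difference of 0.23 ± 0.07 (adjusted p = 0.0774). The related Pfkfb3 and Pfkfb4, both known as HIF targets, differed by -0.02 and 0.08 and did not pass.

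Among induced cells, neither compound changed any of the 39 genes against DMSO at the adjusted threshold in limma. With compound 3 the count was 0 of 39, against 0.0232% of all features (8 features), and 4 of the 39 had an unadjusted p under 0.05, beside 7.29% of all features. With compound 6 it was 0 of 39, against 0.00291% of all features (1 feature), and 0 had an unadjusted p under 0.05, beside 5.66% of all features. The comparisons share the induced DMSO arrays. The lowest p with compound 3 belonged to Epas1, whose 3 arrays were all below the induced DMSO arrays (difference -0.34 ± 0.09, 95% interval -0.54 to -0.14, unadjusted p = 0.00282, adjusted p = 0.35). Pdk1 followed, with all compound 3 arrays above the DMSO arrays (0.17, 95% interval 0.05 to 0.29, adjusted p = 0.497), and then Ldhb (0.19, 95% interval 0.03 to 0.36, adjusted p = 0.6), whose groups touched at 7.42.

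With compound 6 the lowest p belonged to Pdk1 (difference 0.10, adjusted p = 0.889), Slc2a3 (0.10, adjusted p = 0.896) and Slc16a1 (0.06, adjusted p = 0.927). The 95% intervals give the size of change that these data still allow. They lay within 0.5 log2 units of 0 (1.41-fold) for 37 of 39 genes with compound 3, all but Epas1 and Egln3, and for 38 of 39 with compound 6, all but Egln3.

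Compounds 3 and 6 were compared directly at the same dose and time, 1 pair of groups with p-values adjusted over all features. None of the 39 genes passed in limma, against 0.0436% of all features (15 features), and 2 had an unadjusted p under 0.05, beside 8.14% of all features. Epas1 was 1.38-fold higher with compound 6 than with compound 3 (0.46 ± 0.09, 95% interval 0.27 to 0.66, adjusted p = 0.127), and the arrays of the compounds did not overlap. With array weights this difference passed (adjusted p = 0.0425), as did 0.386% of all features in place of 0.0436%. Ldhb was lower with compound 6 (-0.29 ± 0.07, 95% interval -0.45 to -0.13, adjusted p = 0.223), again without overlap. Slc2a3 came next (0.13, 95% interval 0.00 to 0.27, adjusted p = 0.62). The intervals lay within 0.5 log2 units of 0 for 36 of 39 genes, all but Epas1, Egln3 and Vegfa.

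**Figure D3:**
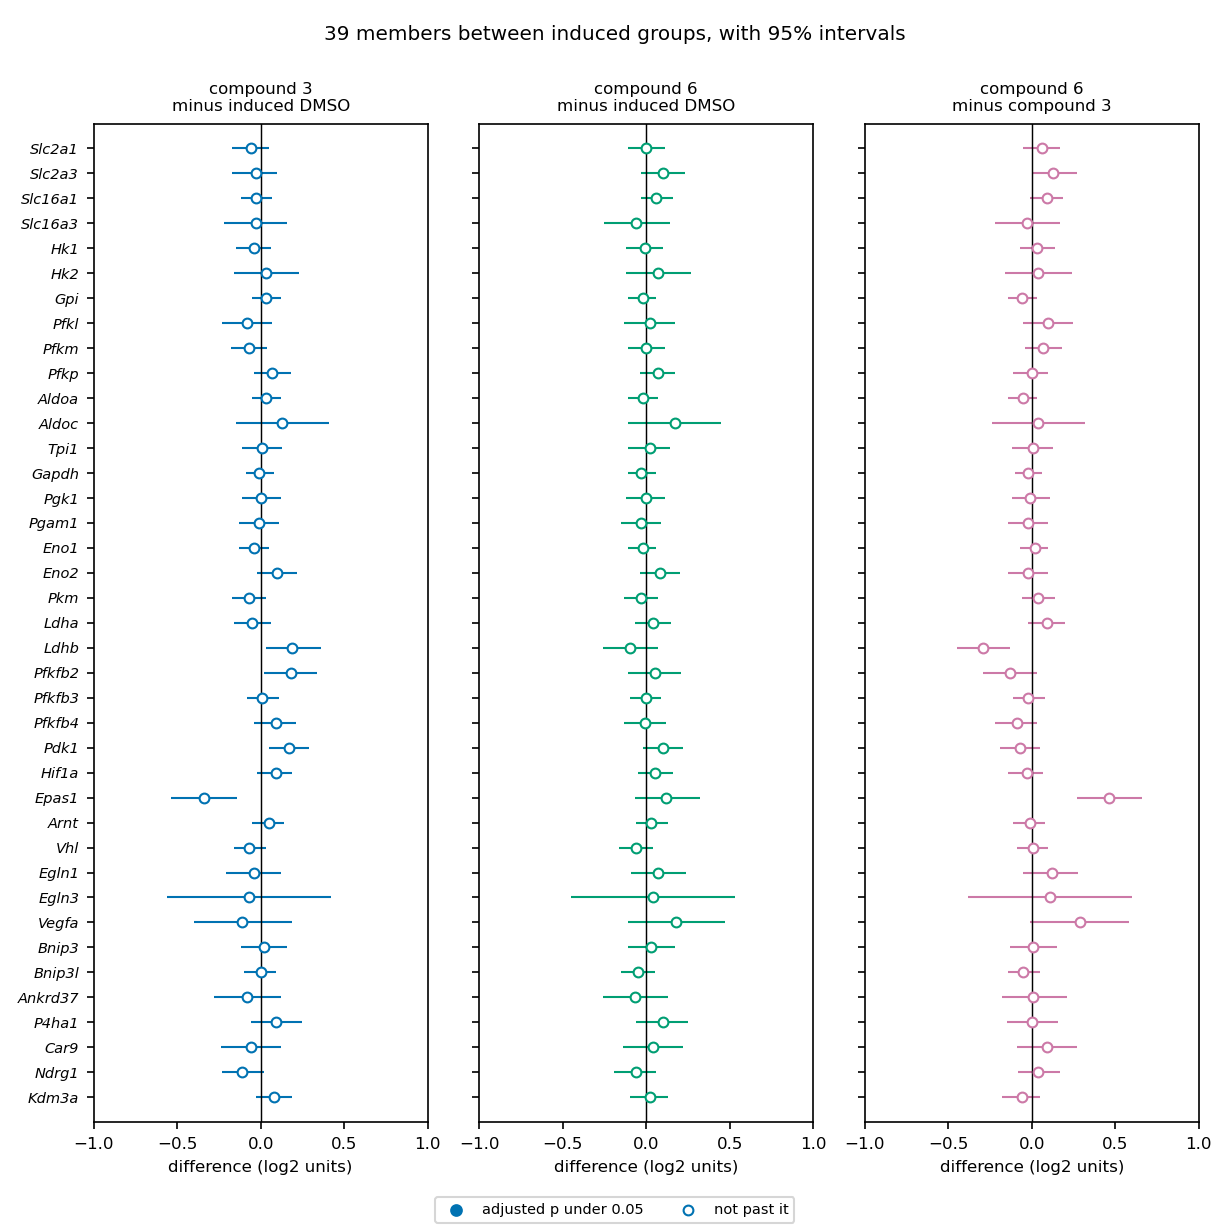
Differences among the 3 induced groups for the 39 genes, in log2 units (x axis) with 95% intervals: each compound against DMSO and compound 6 against compound 3. All circles are open because 0 of 39 genes passed an adjusted p of 0.05 in any panel, and the Epas1 interval in the right panel (0.27 to 0.66) is the farthest from 0.

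The compound-treated induced groups were also set against non-induced DMSO cells, a contrast that joins induction and compound. All 3 comparisons with non-induced cells share the same 3 non-induced arrays, so their values are given side by side and were not tested for overlap. With compound 3, 12 of 39 genes were called (30.8%), 8 lower and 4 higher, against 15.2% of all features, 6.82% lower and 8.34% higher. With compound 6, 8 of 39 were called (20.5%), 5 lower and 3 higher, against 7.68% of all features, 4.10% lower and 3.58% higher. The share of all features rose when the filter on signal was raised to the 75th percentile, above which 37 of the 39 genes lay. There 12 of 37 genes were called with compound 3, against 29% of features, and 9 of 37 with compound 6, against 16.8%.

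Epas1 differed from non-induced cells by -0.78 with DMSO, -1.12 with compound 3 (adjusted p = 2.34e-05) and -0.66 with compound 6 (adjusted p = 0.00191). Vegfa differed by -0.73, -0.84 (adjusted p = 0.00132) and -0.55 (adjusted p = 0.0268) in the same order. The Vegfa call with compound 6 was lost in 6 of 23 alternatives, among them leaving out non-induced replicate 1 or 3 or compound 6 replicate 2 or 3. The 3 transporter genes that fell on induction were also called lower in both compound groups. Slc2a1 differed by -0.33 (adjusted p = 0.00102) with compound 3 and -0.27 (adjusted p = 0.00837) with compound 6, Slc2a3 by -0.43 (adjusted p = 0.000694) and -0.30 (adjusted p = 0.0134), and Slc16a1 by -0.32 (adjusted p = 0.000543) and -0.23 (adjusted p = 0.00914). With compound 6 the Slc2a1 and Slc2a3 calls were lost under quantile normalisation and cyclic loess, and Slc2a3 went to -0.13 under the former. The Slc2a3 call was also lost without non-induced replicate 3 or without compound 6 replicate 2 or 3. Slc16a3 differed by 0.02 with compound 3 (adjusted p = 0.934).

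Ldhb rose by 0.65 (adjusted p = 0.00019) with compound 3 and by 0.36 (adjusted p = 0.0139) with compound 6, the latter call being lost without non-induced replicate 3 or compound 6 replicate 2. The flux-control genes Pdk1 and Pfkfb2, which did not pass with DMSO, passed in both compound groups. Pdk1 rose by 0.34 (adjusted p = 0.00165) with compound 3 and 0.27 (adjusted p = 0.0134) with compound 6, and Pfkfb2 by 0.41 (adjusted p = 0.00264) and 0.28 (adjusted p = 0.0383). Neither gene was shown to differ between a compound and DMSO in induced cells. The Pdk1 call with compound 6 was lost without non-induced replicate 2. The Pfkfb2 call with compound 6 was the less secure, lost in 10 of 23 alternatives, including the removal of any 1 of the 6 arrays compared.

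A further 4 enzyme genes passed against non-induced cells with compound 3 and not with DMSO or compound 6. Ldha differed by -0.22 (adjusted p = 0.0146), Hk1 by -0.18 (adjusted p = 0.0258; compound 3 arrays 9.82, 9.87 and 9.82, compound 6 arrays 9.96, 9.83 and 9.82) and Pfkl by -0.22 (adjusted p = 0.0494; 9.87, 9.95 and 9.79, compound 6 arrays 10.05, 9.94 and 9.92). Gpi differed by 0.13 (adjusted p = 0.0495), with 12.04, 12.07 and 12.03 on the compound 3 arrays and 11.99 on each compound 6 array. These calls were fragile: of 23 alternatives Gpi lost its call in 19, Pfkl in 17, Hk1 in 9 and Ldha in 6. Leaving out non-induced replicate 3 or compound 3 replicate 3 alone ended the Ldha call. In the direct comparison of the compounds these 4 genes did not pass.

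Over all 6 comparisons, 13 genes were called at least once and 26 in none. The matching share of all features was not computed, so whether 13 of 39 differs from it is not known. Compound 3 against non-induced cells alone called 15.2% of all features, and the share over all 6 comparisons cannot be smaller. Tested over all 4 groups at once with limma's F statistic, 8 of 39 genes were called, against 10.3% of all features: Slc2a1, Slc2a3, Slc16a1, Ldhb, Pfkfb2, Pdk1, Epas1 and Vegfa. Epas1 had the lowest adjusted p, 0.000171, and Pfkfb2 the highest of the 8, 0.017.

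Other genes of these pathways were counted from lists chosen by function, with earlier results of these data known. Of 41 other HIF targets above the filter, 10 fell and 2 rose on induction, 14 fell and 6 rose with compound 3 against non-induced cells, and 10 fell and 2 rose with compound 6. Of all features 4.86%, 6.82% and 4.10% fell and 4.20%, 8.34% and 3.58% rose in these comparisons. The median difference of the list on induction was -0.03, with 23 genes lower and 17 higher. The decreases with the lowest p on induction were those of the circadian repressor genes Bhlhe41 (-0.68 ± 0.07, adjusted p = 0.000268) and Bhlhe40 (-1.04 ± 0.12, adjusted p = 0.000567), the transcription factor gene Klf10 (-0.53 ± 0.06, adjusted p = 0.000539) and haem oxygenase 1, Hmox1 (-0.57 ± 0.07, adjusted p = 0.000625). The genes that rose were Narf (0.31, adjusted p = 0.013) and the transferrin receptor gene Tfrc (0.21, adjusted p = 0.0247), with calls lost in 5 and 8 of 23 alternatives, among them the removal of non-induced replicate 3 or induced replicate 2. With compound 3 the lowest p values among decreases belonged to the vasodilator peptide gene Adm (-1.76), the carbonic anhydrase gene Car12 (-1.26), Bhlhe41 (-0.70) and the secreted glycoprotein gene Stc2 (-0.79). With compound 6 they belonged to the mTOR inhibitor gene Ddit4 (-0.62), Stc2 (-0.61), Bhlhe41 (-0.52) and Klf10 (-0.45). Averaging all features of Car12 brought its difference to -0.64 with compound 3. The 4 named for each compound group all had an adjusted p of 0.00206 or less.

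**Figure D4:**
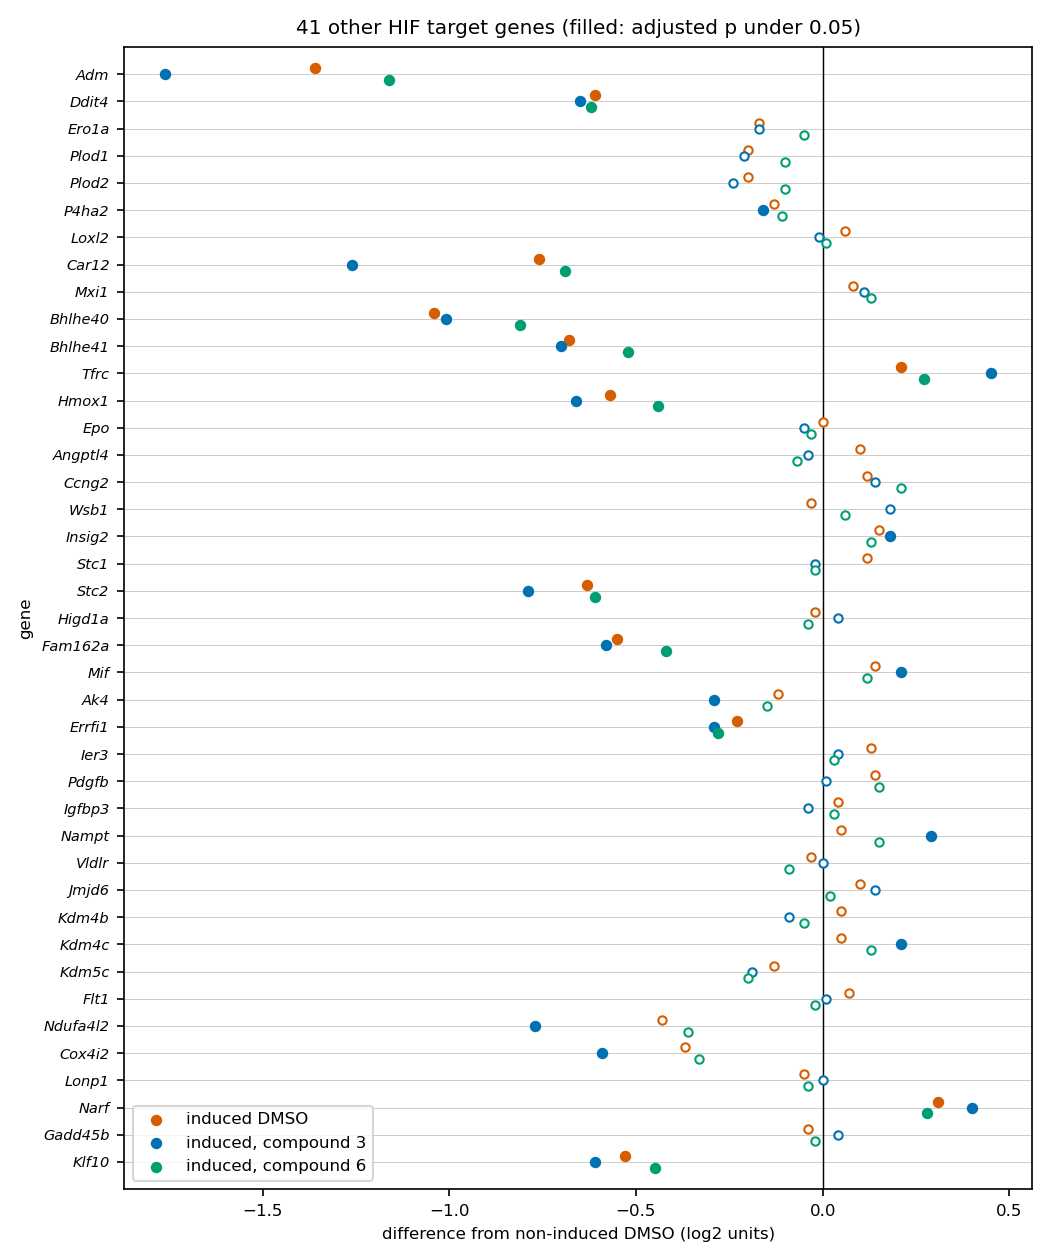
Difference of each induced group from the non-induced group for 41 HIF target genes outside the 39, in log2 units (x axis). Colours are the 3 induced groups and filled circles passed an adjusted p of 0.05. Adm lies farthest to the left in all 3 groups (-1.36 with DMSO, -1.76 with compound 3 and -1.16 with compound 6).

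Among 17 other regulators of oxygen sensing, 2 fell and 2 rose on induction, against 4.86% and 4.20% of all features. Arnt2, a neuronal partner of HIF-α subunits, fell by 0.47 ± 0.05 (adjusted p = 0.000494), and Cited2, a gene whose product competes with HIF for its coactivators, fell by 0.22 (adjusted p = 0.0205). Hspbap1 (0.21, adjusted p = 0.00778) and the deubiquitinase gene Usp20 (0.25, adjusted p = 0.0266) rose. Of 23 alternatives Usp20 lost its call in 9, Cited2 in 6 and Hspbap1 in 3. For Usp20 they included the removal of any non-induced array or of induced replicate 2 or 3, and for Cited2 of non-induced replicate 1 or 3 or induced replicate 2. Arnt2 differed from non-induced cells by -0.59 with compound 3 (adjusted p = 4.4e-05) and by -0.38 with compound 6 (adjusted p = 0.00206).

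Of 27 other genes of sugar, glycogen and glucose synthesis, 3 fell and 2 rose on induction, against 4.86% and 4.20% of all features. Pc, which encodes the pyruvate carboxylase that feeds oxaloacetate to the citric acid cycle, fell by 0.38 (adjusted p = 0.00811), the glycogen branching enzyme gene Gbe1 by 0.89 (adjusted p = 0.0139) and Pgm2 by 0.23 (adjusted p = 0.03). The ADP-dependent glucokinase gene Adpgk (0.28, adjusted p = 0.00384) and the glycogen phosphorylase gene Pygl (0.20, adjusted p = 0.0267) rose. Pgm2 and Pygl each lost the call in 9 of 23 alternatives, Gbe1 in 3 and Pc in 2, one of them quantile normalisation. Leaving out non-induced replicate 3 or induced replicate 2 ended the Pgm2, Pygl and Gbe1 calls, leaving out non-induced replicate 2 those of Pgm2 and Pygl, leaving out induced replicate 1 that of Pgm2 and leaving out induced replicate 3 that of Pygl.

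In the pyruvate dehydrogenase list of 11 genes, Pdhb, Pdhx and the kinase gene Pdk2 rose (0.22, 0.20 and 0.35) and Dld fell by 0.22, with adjusted p values between 0.0106 and 0.0248. The share of all features called in either direction was 9.06%. Pdhx lost its call in 9 of 23 alternatives, Pdk2 in 8, Pdhb in 4 and Dld in 3, each list of losses including the removal of non-induced replicate 2 or 3. Of 15 other transporters 1 fell, Slc16a10 (-0.25, adjusted p = 0.0249), and of 6 pentose phosphate genes 1 rose, Rpe (0.20, adjusted p = 0.0336), a share of the transporters near that of all features. Rpe lost its call in 11 of 23 alternatives, among them the removal of any non-induced array, and Slc16a10 in 5, among them the removal of non-induced replicate 1 or 2. In the comparisons among induced groups, 0 genes of these 6 lists were called.

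The spread within groups was not even across arrays. The second non-induced array was the lowest of its group for 25 of the 39 genes (64.1%), against 30.4% of the features kept that carry 1 symbol. It was lowest for all 4 transporters, 12 of 17 glycolytic enzymes, 6 of 8 HIF targets and 26 of the 41 other HIF targets (63.4%). Egln3 gave the clearest case (8.81 against 9.87 and 9.41). In the other groups the lowest array was most often the second with DMSO (18 of 39, 7 of 8 HIF targets), replicate 3 with compound 3 (19 of 39) and the second with compound 6 (18 of 39). The share of all kept single-symbol features was 29.1%, 36.7% and 30.7% for these arrays. Among the 41 other HIF targets the first induced DMSO array was lowest more often than the second (20 against 15). With compound 3 and compound 6 the arrays named above were also the most often lowest in that list (23 and 20 of 41). The labels give no culture, date or batch for the arrays, and whether such a factor moved with these arrays was not tested. Without the second non-induced array, induction changed 9 of 39 genes in place of 7, the additions being Egln3 and Hk2. Both genes read lowest in their group on that array, so leaving it out enlarges their decreases by construction. The share of all features called was then 6%, in place of 9.06%.

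**Figure D5:**
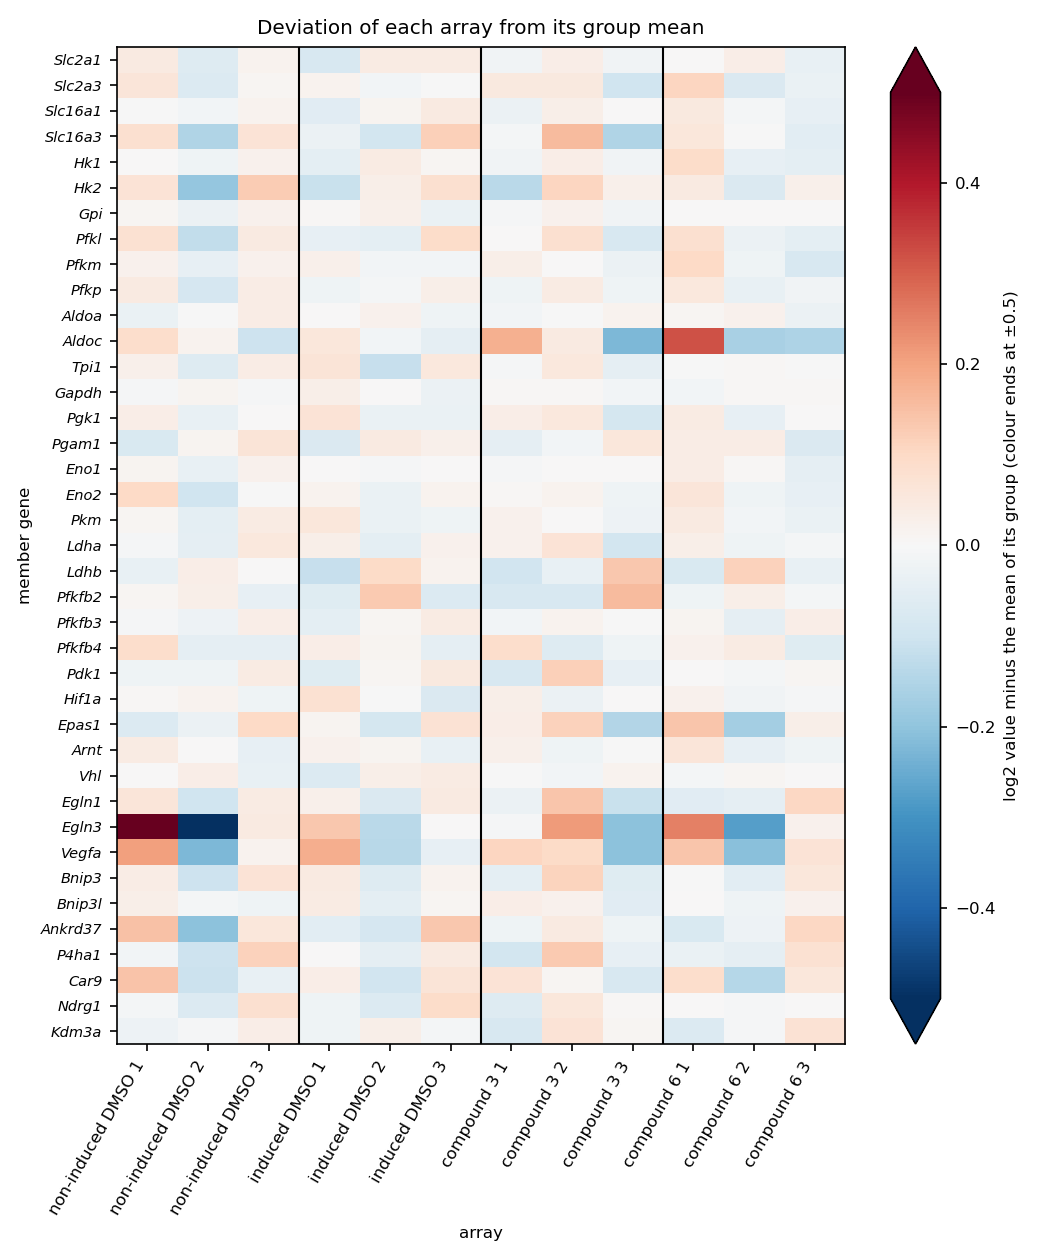
Log2 value of each of the 39 genes (rows) on each of the 12 arrays (columns) minus the mean of that array's group, with the colour scale ending at 0.5 in either direction. The second non-induced column is mostly blue, as for 25 of 39 genes it is the lowest array of its group, and Egln3 shows the widest range (1.06 in non-induced cells).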

How the data were processed

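Total RNA (250 ng per sample) was measured on 12 Affymetrix rat transcriptome arrays, 1 sample each. The deposited values are log2 expression per transcript cluster, made with RMA in Affymetrix Expression Console per the submitters' processing notes, with versions not given in the sources used here. RMA puts arrays on a common scale, so values are relative.

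From the 70580 features, 1738 controls were left out, and of the other 68842 the 34422 with a 12-array mean at or above the median of feature means (4.63) were tested. Symbols came from the platform annotation (23446 features with 1 symbol, 505 with several, 44891 with none). No pair of arrays was identical (0 pairs). Groups followed the labels. R 4.3.3 with limma 3.58.1 fitted 4 group means to all arrays (8 residual degrees of freedom, prior 3.27) with empirical Bayes, and p-values were Benjamini-Hochberg adjusted over all features tested, with a threshold of 0.05. The code was tested on simulated data. The median standard error of a difference was 0.07, and 3 arrays a group limit the precision. Replicates carry numbers, but nothing states that each was its own culture. The p-values therefore reflect only how much these samples varied, and that variation may be technical. The labels do not say what the numbers mean, so they were not taken as pairs (see the replicate block among the alternatives). Same-numbered arrays did not deviate together in every pair, but all pairs of replicate 1 arrays did (correlations 0.22 to 0.45). Whether these arrays shared a factor was not tested.

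The genes and lists were chosen with earlier results of these data known. Array values are given for genes called in any comparison, for the 3 lowest p in each and for a few central genes, and other lists are given by counts and at most 4 names per direction and comparison. Alternatives covered the filter, 3 scalings, the variance prior, array weights, a replicate block, a minimum change of 1.5-fold, each array left out, averaged features and fits of 2 groups. Promoters were read with Python 3.11.15 and pandas 2.3.3, and plots drawn with matplotlib 3.10.9.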

Additional observations from a re-analysis of the deposited data

How the results depend on the processing

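Of the 27 calls over the 39 genes and 6 pairwise comparisons, 14 held in every alternative other than the minimum change of 1.5-fold. Leaving that minimum aside, 5136 values were recomputed, of which 83 lost a call, 26 gained one and 0 reversed a called direction. On induction the count of 7 of 39 became 11 (3 higher, 8 lower) of the 37 genes above a filter at the 75th percentile. Under that filter 20% of all features were called, against 9.06% in the main setting. The count was 0 when a change of at least 1.5-fold was required, with 0.00581% of all features called. With quantile normalisation it was 6, split 3 higher and 3 lower in place of 1 and 6, with 9.35% of all features called. Leaving out 1 array gave 6 to 9 on induction, 8 to 14 for compound 3 against non-induced cells and 4 to 8 for compound 6 against non-induced cells, the 4 arising without non-induced replicate 3 or compound 6 replicate 2. Across these fits the share of all features called was 5.27% to 15%, 10.1% to 15.9% and 3.52% to 8.54% in the same order. Leave-one-out counts were 0 to 0 in the comparisons among induced groups, with at most 0.0261% of all features called. For the F-test they were 7 to 8, with 5.44% to 12.6% of all features called. Compound 6 against compound 3 gave 1 gene, Epas1, with array weights, where 0.386% of all features were called in place of 0.0436%. Against non-induced cells, compound 3 gave 1 with the 1.5-fold minimum (0.238% of all features). Compound 6 gave 5 with cyclic loess (7.06%) and 0 with the minimum (0.00291%). The causes of these shifts were not tested, apart from the minimum, which asks for a larger change by construction.

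With the replicate number as a block the counts were 7 on induction and 0 in each comparison among induced groups. Against non-induced cells they were 11 for compound 3 and 8 for compound 6, and the F-test gave 8. The matching shares of all features were 9.71%, at most 0.131%, 16.2%, 8.64% and 10.9% in the same order. Same-numbered arrays of different groups correlated at -0.17 to 0.45 in their deviations from group means (10 of 18 pairs above 0.1), other pairs at -0.46 to 0.42 (6 of 36), and 6 of 12 arrays correlated best with their own number. The features called on induction numbered 3120, against 5515 with array weights, 2072 without a filter, 1573 when only the arrays of the 2 groups entered the fit and 2 with the 1.5-fold minimum. The share of them that rose was 46.4%, and 30.9% after shifting arrays to one median. With 3 arrays a group, small differences remain undetectable.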
